A study of Sus scrofa with 4 samples.

Results

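The D-type cyclins and their kinases start a cell on the way from G1 into DNA synthesis. Hormones and growth factors raise a D-type cyclin, encoded by CCND1, CCND2 or CCND3. The cyclin binds CDK4 or CDK6, and the active kinase phosphorylates the retinoblastoma (RB) family, which releases E2F transcription factors. INK4 proteins block CDK4 and CDK6, whereas CIP/KIP proteins bind several cyclin-kinase complexes. In granulosa cells, the somatic cells that surround the oocyte, cyclin D2 is the D-type cyclin best known for its response to follicle-stimulating hormone. The 5 genes CCND1, CCND2, CCND3, CDK4 and CDK6 were taken by symbol from a deposited table of 29884 genes. All 5 were in the table and passed the filter on low counts, which left 14352 genes for testing.

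Granulosa cells came from antral follicles of pigs, and each follicle's cells were also read for cell cycle phase by flow cytometry. The labels place 2 libraries in a group of high G0/G1 distribution and 2 in a group of low distribution, here called high and low G0/G1, and give no treatment, genotype, animal, age or phase percentage. All 4 libraries therefore came from the same labelled tissue and cell type, with the G0/G1 share as the difference between groups. Whether the 2 libraries of a group stem from different animals is not said, and the spread behind the p-values may therefore be technical.

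Total counts ran from 27442850 to 32674921 per library. Of 10 granulosa markers 9 had counts, with a summed level of 12723 to 20560 CPM (counts relative to the scaled library total). CYP19A1 was at 0 in all 4 libraries, while its paralog CYP19A3 had 1142 to 3984 CPM. One library stood apart by markers of other cells. In low replicate 2 the 6 stromal fibroblast markers summed to 1420 CPM, against 34.8 to 115 CPM in the other libraries.

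For CCND2, CCND3 and CDK4 both high G0/G1 libraries had lower levels than both low ones, as for 29.8% of all genes tested. For CDK6 the groups overlapped, and 0 of the 5 genes passed the test. CCND2 averaged 170 ± 120 CPM in high and 328 ± 37.9 CPM in low G0/G1 cells (SD, n = 2 per group), CCND3 33.2 ± 4.92 and 59.8 ± 4.74 CPM, and CDK4 99.8 ± 21.1 and 189 ± 5.08 CPM. CDK6 averaged 162 ± 53.3 CPM in high and 119 ± 8.42 CPM in low. CCND1 had at most 19 counts in 3 of the 4 libraries. After adjustment over all genes, edgeR's quasi-likelihood test called 0 of the 5 genes, and its background was 0% of the 14352 genes in either direction. At an unadjusted p under 0.05 it took 2 of the 5, CCND3 and CDK4, both lower, against 10.8% of all genes lower and 9.92% higher. In bulk samples, fewer cells with a message and less of the message per cell cannot be told apart.

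**Figure D1:**
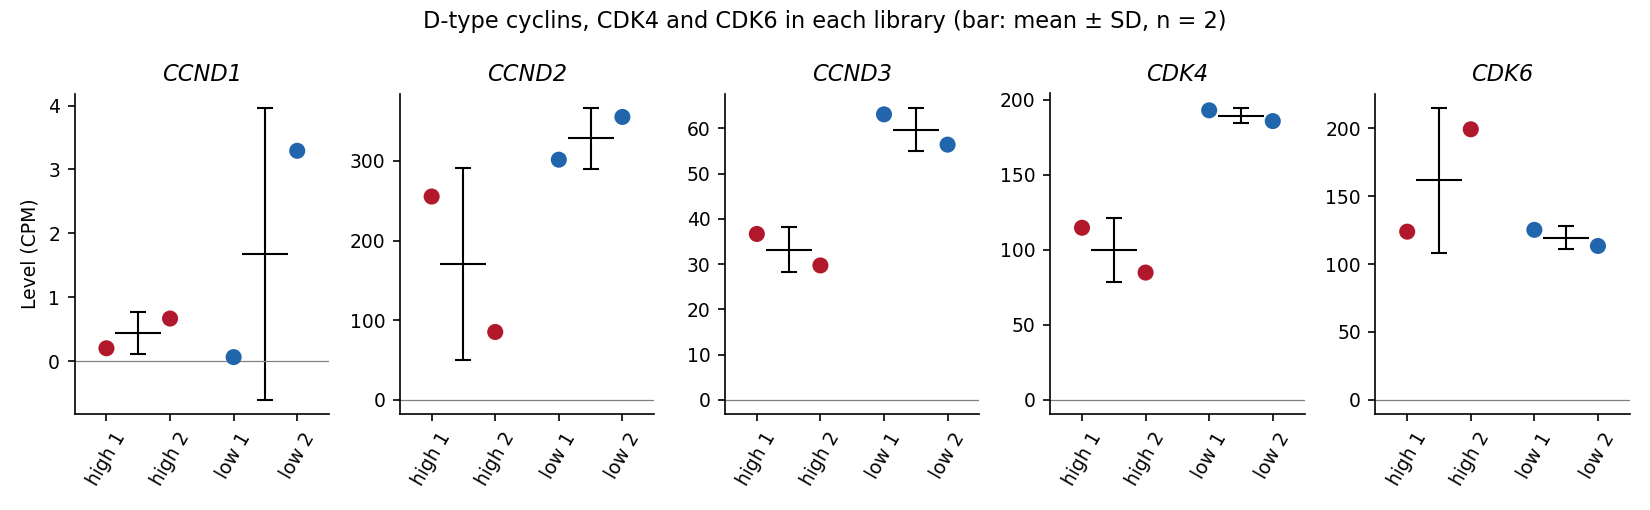
Level in CPM (y axis, linear) of each of the 5 genes in the 4 libraries (x axis), with high G0/G1 libraries in red and low ones in blue. Black bars give the mean ± SD of 2 libraries. The groups do not overlap for CCND2, CCND3 and CDK4, and overlap for CCND1 and CDK6. Both high libraries are below both low ones in 29.8% of all genes tested.

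CCND2 (chromosome 5, 66092483 to 66114575 in Sscrofa11.1, protein coding) is the D-type cyclin tied to granulosa cell proliferation. High replicates 1 and 2 had 255 and 85.2 CPM, while low replicates 1 and 2 had 302 and 355 CPM. Both high libraries lay below both low ones, but high replicate 1 was close to the low libraries and high replicate 2 was far below them. The high libraries differed from each other by 2.996-fold, more than the 1.93-fold difference between the group means. The log2 fold change, high minus low, was -0.95 ± 0.53 (SE, 95% interval -2.29 to 0.39, edgeR adjusted p = 0.355).

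The value of CCND2 rested on which high library was kept. Without high replicate 1 its log2 fold change was -1.95 and passed edgeR's threshold (adjusted p = 0.0359), in a fit that called 591 genes, 3.92% of those tested, lower. Without high replicate 2 it was -0.36 (adjusted p = 0.530). The same library held the lowest RB-E2F target messages. Relative to their mean over the 4 libraries, those 22 genes averaged -0.31 in high replicate 1 and -1.98 in high replicate 2 on the log2 scale, and 1.24 and 1.05 in low replicates 1 and 2. CCND2's own values on that scale were 0.22, -1.37, 0.46 and 0.69. In high replicate 1, CCND2 was thus above its mean while the target genes averaged below theirs.

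CCND3 (chromosome 7, 37087336 to 37182462, protein coding) encodes cyclin D3. Its annotated span overlaps TAF8 by 3193 bases, and that of CCND2 overlaps a non-coding gene by 2199 bases, so without a stated strand setting reads there cannot be told apart. It stood at 36.7 and 29.7 CPM in high replicates 1 and 2, and at 63.1 and 56.4 CPM in low replicates 1 and 2. The groups did not overlap, and each group's libraries were close together, at 1.23-fold apart in high and 1.12-fold in low. Its log2 fold change was -0.85 ± 0.22 (SE, 95% interval -1.42 to -0.28) with an unadjusted p of 0.0117, which missed the threshold (edgeR adjusted p = 0.175). With 1 library left out the value ran from -1.02 to -0.70.

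CDK4 (chromosome 5, 23039206 to 23041959, protein coding), the kinase subunit that D-type cyclins activate, had the smallest p of the 5 genes. Its level was 115 and 84.9 CPM in high replicates 1 and 2 and 193 and 186 CPM in low replicates 1 and 2. The low libraries agreed within 1.04-fold, and both high libraries were well below them. The log2 fold change was -0.92 ± 0.24 (SE, 95% interval -1.52 to -0.33), with an unadjusted p of 0.0103 that missed the threshold after adjustment (edgeR adjusted p = 0.171). It ranged from -1.17 to -0.72 with 1 library left out.

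DESeq2 called 1 of the 5 genes, CDK4, as lower (adjusted p = 0.0308), against a background of 5.05% of genes called lower. That call was lost without high replicate 2 (log2 fold change -0.70), without low replicate 1 (-0.86) and without low replicate 2 (-0.97). Each of these fits also called fewer genes lower over the whole table than the fit with 4 libraries. CCND3 was just outside DESeq2's threshold (adjusted p = 0.0551). Without high replicate 1, DESeq2 called CCND2 (adjusted p = 6.0e-08), CCND3 (0.0466) and CDK4 (0.00412) lower, along with 8.36% of genes tested.

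CDK6 (chromosome 9, 72510858 to 72765631), the other kinase partner of D-type cyclins, did not share the direction of CDK4. The RefSeq annotation of this assembly gives the gene's type as long non-coding RNA, and its transcripts were not looked up. It had 124 and 199 CPM in high replicates 1 and 2, and 125 and 113 CPM in low replicates 1 and 2. High replicate 1 lay between the low libraries, and high replicate 2 was above all others. The log2 fold change was 0.44 ± 0.29 (SE, 95% interval -0.29 to 1.17, edgeR adjusted p = 0.426), and without high replicate 2 it was 0.06. The interval leaves room for a higher or a slightly lower level.

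**Figure D2:**
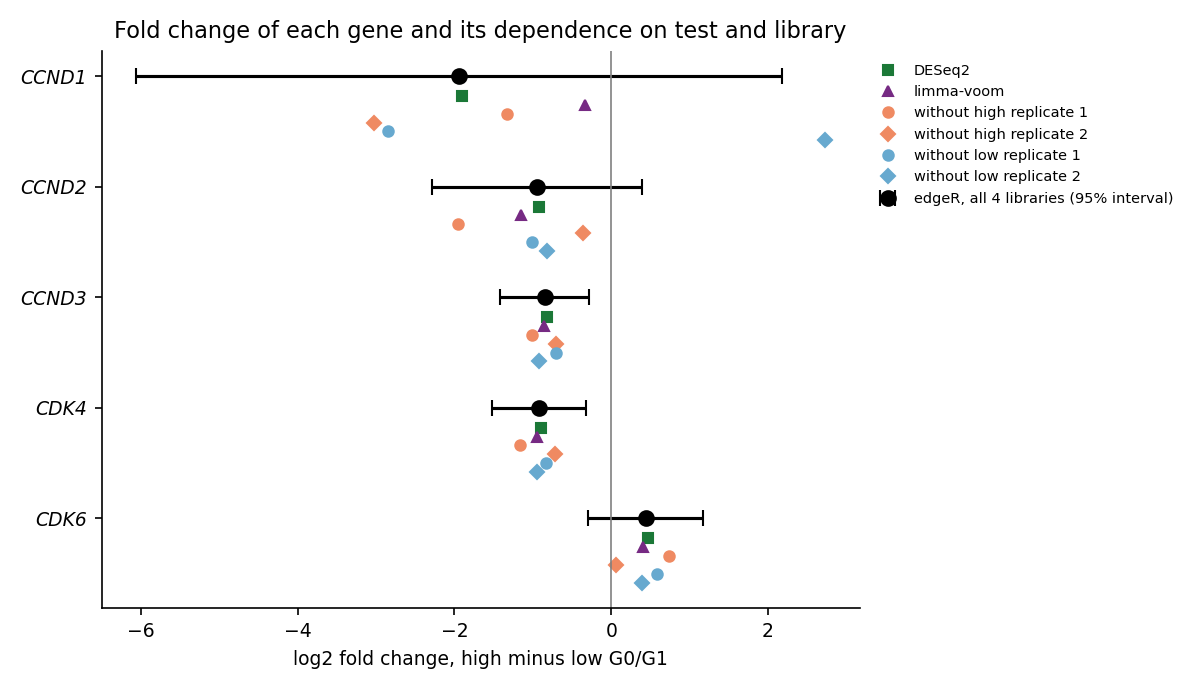
Log2 fold change, high minus low G0/G1 (x axis), of each gene (y axis). Black points are edgeR's values from 4 libraries with 95% intervals, and coloured symbols give other tests and fits without 1 library. CCND3 and CDK4 stay between -1.17 and -0.70, whereas CCND1 runs from -3.03 to 2.73.

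CCND1 (chromosome 2, 3621242 to 3633380, protein coding), the D-type cyclin of many fibroblastic and epithelial cells, was scarce. High replicates 1 and 2 held 6 and 19 counts, and low replicates 1 and 2 held 2 and 95. As levels these were 0.201 CPM (95% Poisson interval 0.0738 to 0.438), 0.667 CPM (0.401 to 1.04), 0.0627 CPM (0.00759 to 0.227) and 3.29 CPM (2.66 to 4.02). The intervals cover counting error only. Low replicate 2 was above every other library, and low replicate 1 was the lowest. Its log2 fold change of -1.94 ± 1.62 (SE, 95% interval -6.06 to 2.18, edgeR adjusted p = 0.527) turned to 2.73 without low replicate 2 and was -0.34 with limma-voom.

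Markers of other cell types moved with CCND1 across libraries. The summed stromal fibroblast markers were 86.8 and 115 CPM in high replicates 1 and 2 and 34.8 and 1420 CPM in low replicates 1 and 2, and 5 of the 6 were highest in low replicate 2. Smooth muscle markers summed to 36.7, 43.3, 23.2 and 199 CPM in the same order of libraries, with 4 of 5 highest in low replicate 2. Endothelial markers summed to 13.4, 41.7, 6.87 and 53.1 CPM, with 5 of 6 highest in low replicate 2, and leukocyte markers to 2.82, 5.58, 1.25 and 8.39 CPM, with 4 of 7 highest there. In each of these 4 lists the libraries took the same order as for CCND1. The 6 theca markers summed to 149, 329, 232 and 433 CPM, in another order. Of these, 3 of 6 were highest in low replicate 2, among them CYP17A1, the androgen-producing enzyme of theca cells, at 51.5 CPM against at most 1.02 elsewhere, while CYP11A1, PTCH1 and NR2F2 were highest in high replicate 2. Of the defining markers COL1A1, COL1A2, COL3A1 and DCN of stroma, 0 were at 0 in any library. The part of these cells in the CCND1 counts was not tested.

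**Figure D3:**
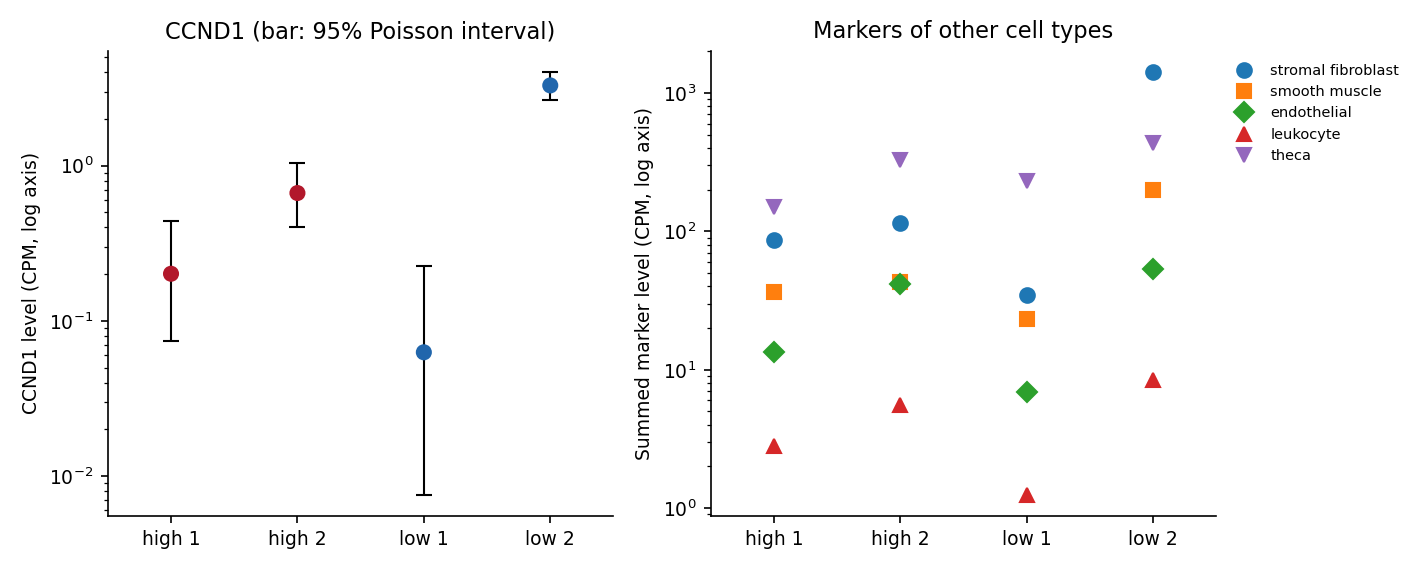
Left, CCND1 level in CPM (log axis) by library with 95% Poisson intervals. Right, summed level in CPM (log axis) of 5 marker lists by library. Low replicate 2 is highest for CCND1 at 3.29 CPM and for all 5 lists, including stromal fibroblast markers at 1420 CPM.

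Groups that did not overlap were common in this table. Of the 5 genes 3 had both high libraries below both low ones, where 29.8% of all genes tested did, and 0 had them above, where 26.8% did. A negative log2 fold change was seen in 4 of the 5 genes and in 50.6% of all genes tested. The median log2 fold change was -0.95 for the 3 D-type cyclins and -0.01 for all genes tested.

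Within the D-type cyclin family most reads were CCND2 in every library. CCND2 made up 87.4% of D-type cyclin counts in high replicate 1 (95% exact Clopper-Pearson interval 86.7 to 88.1), 73.7% in high replicate 2 (72.2 to 75.2), 82.7% in low replicate 1 (82.0 to 83.4) and 85.6% in low replicate 2 (85.0 to 86.2). CCND3 held 12.6%, 25.7%, 17.3% and 13.6% in the same libraries, and CCND1 less than 1% in each, at most 0.793%. High replicate 2 had the largest CCND3 share, while high replicate 1 had the smallest. These are shares of reads and not of molecules, since longer transcripts give more reads and transcript lengths were not used here. The CCND2 share overlapped between groups, at 80.5% ± 9.66 in high and 84.1% ± 2.07 in low (SD, n = 2, exact permutation p = 1, two-sided).

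The summed D-type cyclin level was 292 and 116 CPM in high replicates 1 and 2, against 365 and 415 CPM in low replicates 1 and 2. Both high libraries were below both low ones, by 1.08 on average on the log2 scale (-1.08), and most of that gap came from high replicate 2. CDK4 and CDK6 together summed to 239 and 284 CPM in high and 318 and 299 CPM in low, a narrower range than the cyclins. D-type cyclin counts per CDK4 plus CDK6 count were 1.22 and 0.407 in high and 1.15 and 1.39 in low. These groups overlapped, with high replicate 1 between the low libraries and high replicate 2 alone below (exact permutation p = 0.667, two-sided, n = 2 per group).

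The ratio of CDK4 to CDK6 counts did not overlap between the groups. As for the cyclin shares, counts were not divided by transcript length. The annotation used here lists CDK6 as non-coding, and which CDK6 transcripts were counted is not known. There were 0.926 and 0.426 CDK4 counts per CDK6 count in high replicates 1 and 2, and 1.54 and 1.64 in low replicates 1 and 2. The ratio is taken within a library, so it does not depend on how libraries were scaled. Its log2 value averaged -0.67 ± 0.79 in high and 0.67 ± 0.06 in low (SD, n = 2), a difference of -1.34 that ran from -1.90 to -0.78 with 1 library left out. The exact permutation p was 0.33, two-sided, which is the smallest that 2 against 2 libraries allow, and it was 1 after adjustment over the 6 ratios and sums tested this way.

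**Figure D4:**
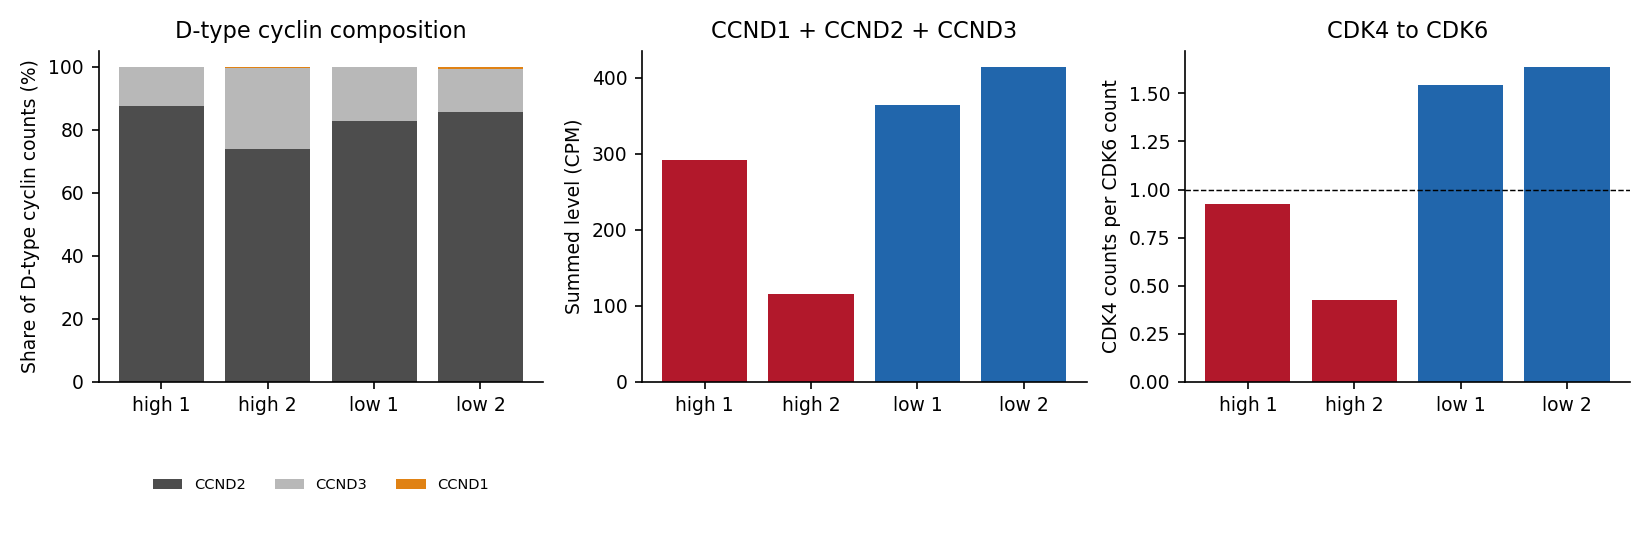
Left, share of D-type cyclin counts in % held by CCND2, CCND3 and CCND1. Middle, their summed level in CPM. Right, CDK4 counts per CDK6 count, with a dashed line at equal counts. The ratio is 0.926 and 0.426 in high and 1.54 and 1.64 in low G0/G1 cells. Counts were not divided by transcript length.

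The inhibitors of the kinases differed by family in the sign of their log2 fold changes. CDKN2C and CDKN2D, the INK4 genes of p18 and p19, were both lower in both high libraries, like CDK4 and 29.8% of all genes tested. CDKN2C had 39.0 and 27.3 CPM in high and 77.7 and 95.5 CPM in low, with a log2 fold change of -1.39 ± 0.27 (SE, edgeR adjusted p = 0.152), and CDKN2D had 14.6 and 4.56 against 29.1 and 24.5 CPM. CDKN2B, the gene of p15, had 1 to 12 counts and was not tested, and CDKN2A was not analysed here. All 3 CIP/KIP genes had positive log2 fold changes, 0.71 ± 0.19 for CDKN1B (p27), 1.44 ± 0.59 for CDKN1A (p21) and 0.42 ± 0.55 for CDKN1C (p57), and 0 passed after adjustment (edgeR adjusted p of 0.176 or more). CDKN1C had -0.03 without low replicate 2. DESeq2 called CDKN1B higher (adjusted p = 0.0451), as it did 5.34% of all genes, and CDKN2C lower (adjusted p = 0.00187), as it did 5.05%. The CDKN1B call was lost with any 1 library left out, at DESeq2 log2 fold changes of 0.71 to 0.76. The CDKN2C call was lost without low replicate 1 (-1.49) or low replicate 2 (-1.25). Fits without 1 of the low libraries called fewer genes in both directions than the fit with 4 libraries.

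Genes that assemble and activate the complex had a median log2 fold change of -0.28 over 7 members, 1 higher and 6 lower, and 0 passed edgeR's threshold. CDC25A, a phosphatase that activates cyclin-dependent kinases, had 15.7 and 11.6 CPM in high and 49.2 and 46.1 CPM in low (-1.80 ± 0.26, SE, edgeR adjusted p = 0.125). CDC37, the chaperone that hands CDK4 to HSP90, had 148 and 135 against 204 and 201 CPM (-0.52 ± 0.20). CCNH, the cyclin of the CDK-activating kinase, had 36.1 and 29.6 against 23.3 and 25.1 CPM (0.44 ± 0.23). The median of this list turned to 0.10 without low replicate 1.

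Genes that mark D-type cyclins for breakdown had a median of 0.00 over 15 members, 8 higher and 7 lower, with 0 past edgeR's threshold. Without scaling the library totals 1 of the 8, FBXW8, turned from 0.00 to -0.04. AMBRA1, the substrate receptor that directs the ubiquitination of D-type cyclins, had the smallest p. It had 141 and 165 CPM in high and 72.2 and 60.02 CPM in low (1.21 ± 0.22, SE, edgeR adjusted p = 0.148). Both high libraries were above both low ones, as for 26.8% of all genes tested. DESeq2 called it higher (adjusted p = 0.0013), as it did 5.34% of all genes. DESeq2's call was lost without low replicate 1 and without low replicate 2, in fits that called fewer genes higher than the fit with all libraries. DYRK1B, a kinase of resting cells that phosphorylates cyclin D1, had 76.3 and 74.8 against 31.0 and 49.1 CPM. SKP2, an F-box protein that recruits p27 for degradation, had 15.2 and 6.81 against 27.0 and 26.1 CPM.

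Downstream, the RB family and its E2F and DP partners were mixed, with 4 of 10 members higher, 6 lower and 0 past edgeR's threshold. The activating factor E2F2 had 11.4 and 2.53 CPM in high and 46.5 and 45.2 CPM in low. The DP subunit gene TFDP1 had a log2 fold change of -0.79 ± 0.24 (SE) and E2F4, which acts with p130 in resting cells, -0.72 ± 0.25. Among the kinase substrates, picked once their values were known, RB1 overlapped between groups at 36.7 and 23.6 against 32.8 and 25.2 CPM (0.06 ± 0.31), with -0.30 without high replicate 1 and -0.11 without low replicate 2. RBL1, the gene of p107, had 85.9 and 19.1 against 135 and 105 CPM, and RBL2, the gene of p130, 57.3 and 59.4 against 42.7 and 46.1 CPM.

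The 3 genes of the cyclin E step, which follows the D-type cyclins, had negative log2 fold changes with all 4 libraries, with 0 past edgeR's threshold. CCNE1 had 2.08 and 0.912 CPM in high and 8.21 and 5.61 CPM in low, and CDK2 42.0 and 9.999 against 84.4 and 84.7 CPM. CCNE2, at 62.0 and 39.0 against 62.5 and 51.1 CPM, overlapped between groups, and its log2 fold change of -0.17 turned to 0.13 without high replicate 2 and to 0.04 when low replicate 1 was left out. All 22 RB-E2F target genes had lower levels in both high libraries than in both low ones, as 29.8% of all genes did, with a median log2 fold change of -2.23. Of the 22, 21 had an unadjusted edgeR p under 0.05 and were lower (10.8% of all genes), 0 passed edgeR's threshold after adjustment, and DESeq2 called 21 lower (5.05% of all genes). With 1 library left out, the median of these 22 genes ran from -3.37 without high replicate 1 to -1.52 without high replicate 2. How many of them each test called also changed with the library left out. MCM7 and MCM5, subunits of the replicative helicase, had -1.51 ± 0.23 and -1.88 ± 0.36 (SE). The grouping itself was by cell cycle phase, so these levels are not independent of it.

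**Figure D5:**
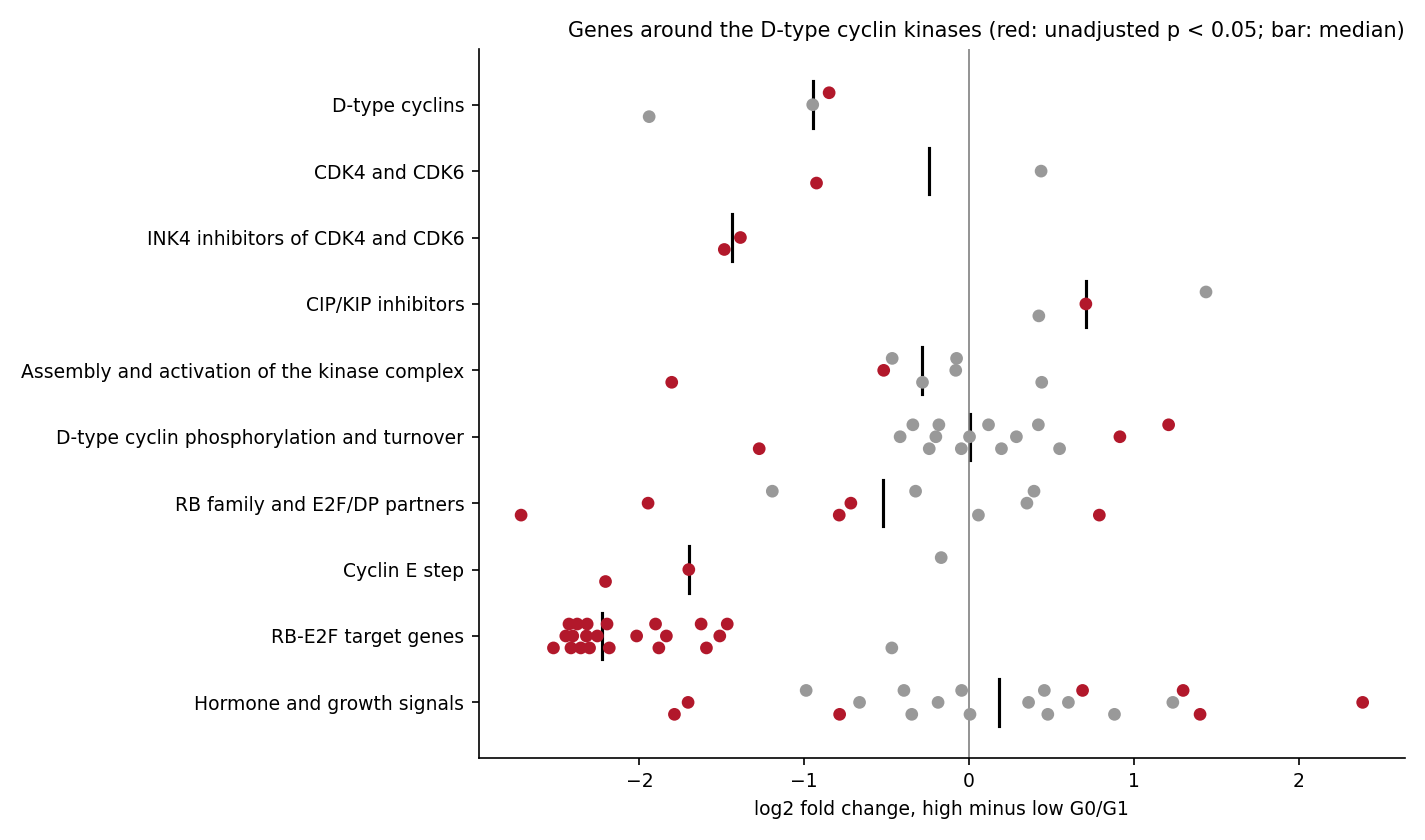
Log2 fold change, high minus low G0/G1 (x axis), of each tested gene in 10 lists (y axis) around the D-type cyclin kinases. Red points have an unadjusted edgeR p under 0.05 and black bars mark list medians. The RB-E2F targets have a median of -2.23, against -0.95 for the D-type cyclins and 0.00 for the turnover genes.

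Of 20 hormone and growth signals upstream of the D-type cyclins 11 had a positive and 9 a negative log2 fold change, with a median of 0.18 and 0 past edgeR's threshold. DESeq2 called 3 of the 20 higher and 2 lower, against 5.34% and 5.05% of all genes. FSHR, the receptor of follicle-stimulating hormone, had 22.5 and 26.03 CPM in high and 81.6 and 85.8 CPM in low. Unlike CCND2, it was as low in high replicate 1 as in high replicate 2. Its log2 fold change was -1.79 ± 0.21 (SE, edgeR adjusted p = 0.125), and DESeq2 called it lower (adjusted p = 1.1e-07). DESeq2's value was -1.65 without high replicate 1, -1.87 without high replicate 2 and -1.78 without low replicate 1. IGF1, a growth factor of follicle cells, had 183 and 164 against 51.9 and 79.4 CPM. FOXO1, a forkhead factor that restrains granulosa proliferation, had a log2 fold change of 1.30 ± 0.26 (SE, edgeR adjusted p = 0.155).

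The 5 genes also differed in which other genes shared their profile over the 4 libraries, measured as the Euclidean distance between centred log2 CPM values among up to 10969 genes. CCND3 and CDK4 were close to each other, at a distance of 0.149, while CCND2 was 0.863 from CDK4 and CDK6 was 1.56 from CDK4. The genes nearest to CCND2 were ZBTB16 (0.0904), AHDC1 (0.101) and ARHGAP33 (0.160), and 27 genes lay within 0.3. CCND3 was nearest to CMIP, TIMM13 and CNOT9 (0.0294 to 0.0490), CDK4 to PIGX, ELMOD2 and HAPLN4 (0.0385 to 0.0541), and CDK6 to GLUD1, KLHDC8B and RN5-8S (0.0260 to 0.0357). Within 0.3 there were 453, 379 and 313 genes for these 3, so their profiles were common ones. CCND1 had 0 genes within 0.3, and PDGFRB, a receptor gene of perivascular and stromal cells, was nearest at 0.489 and EHD2 was at 0.717.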

How the data were processed

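The authors deposited raw read counts as a single table, genes in rows by symbol and libraries in columns. The aligner HISAT2 and the build Sscrofa11.1 are named in the submitters' processing notes, per the labels. Which counter, annotation release, strand setting or filter was used is not given in the sources used here. RNA was isolated with Trizol and had to pass an integrity number of 8, per the labels' protocols. Columns were matched to samples by title. Coordinates came from RefSeq's annotation of Sscrofa11.1, in which 29862 of 29884 rows matched a symbol.

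Genes were kept by edgeR's filterByExpr (count 10, total 15), scaled by TMM and tested for high against low G0/G1 with glmQLFit and glmQLFTest, without covariates and with p adjusted by Benjamini-Hochberg over 14352 genes at a threshold of 0.05 (edgeR 4.0.16, R 4.3.3). Standard errors were taken as |log2 fold change| divided by the square root of F. The 95% intervals use the quasi-likelihood degrees of freedom and are not adjusted for the number of genes. CPM uses library totals times TMM factors, and log2 CPM a prior count of 2. DESeq2 1.42.0 and limma-voom (limma 3.58.1) were alternatives, beside other scaling, no filter and leaving out each library. The quasi-likelihood test was tested on simulated data. Ratios and sums used exact permutation over libraries.

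The 5 genes and the lists were chosen with earlier results of these data known. Named genes are the 5, every member of a list of 4 or fewer, the 3 members with the smallest p in longer lists (average log2 CPM of 1 or more), and the 3 nearest profiles of each of the 5. Some genes that this rule takes are not reported here. Marker genes named singly, FBXW8, the RB family genes and the genes that overlap CCND2 and CCND3 fall outside this rule and were picked once their values were known. Levels were not divided by transcript length. The 6 oocyte markers summed to 6.43 to 11.5 CPM.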

Additional observations from a re-analysis of the deposited data

How the results depend on the processing

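CCND2, CCND3, CDK4 and CDK6 kept their direction under DESeq2, limma-voom, RLE size factors, no scaling, no low-count filter and with each library left out. CCND1 reversed to 2.73 without low replicate 2, the library that held 95 of its counts. Of these settings, CDK4 passed the threshold with DESeq2 (-0.90) and CCND2 with edgeR without high replicate 1. With 1 library left out the log2 fold changes ran from -3.03 to 2.73 for CCND1, -1.95 to -0.36 for CCND2, -1.02 to -0.70 for CCND3, -1.17 to -0.72 for CDK4 and 0.06 to 0.73 for CDK6. Genes called higher and lower by edgeR, 0 and 0 with 4 libraries (1424 and 1553 at an unadjusted p under 0.05), numbered 767 and 725 with DESeq2, 0 with limma-voom and 2 and 3 without the low-count filter, and ran from 0 to 363 and 0 to 591 with 1 library left out, both highest without high replicate 1. Where 1 library was left out, the lone sample of a group was assumed to vary like the other group. The CCND2 share difference ran from -10.4 to 3.23 percentage points and that of CCND3 from -2.90 to 10.3, each with the sign changed without high replicate 2, the CCND1 share from -0.47 to 0.31, the summed cyclin level from -1.75 to -0.41 and the cyclin to kinase ratio from -1.63 to -0.04 on the log2 scale. The list medians of RB-E2F targets ran from -3.37 to -1.52, of the cyclin E step from -2.92 to -1.01, of INK4 inhibitors from -1.67 to -1.01, of the turnover genes from -0.04 to 0.20 and of the assembly genes from -0.52 to 0.10. The cause of these shifts was not tested. Values per transcript length were not run. No paired analysis was possible because the labels give each library a code of unstated meaning. The codes of high replicate 2 and low replicate 2 share a first letter that the others lack, which was not used. The replicate numbers used here follow listing order and only name libraries. Depth limits CCND1, since 3 counts correspond to 0.0941 to 0.105 CPM.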

Other observations

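Some genes that lie next to the D-type cyclins and CDK4 on the assembly, picked once their values were known, have values that bear on how the counts are read. TAF8, a TFIID subunit gene, overlaps CCND3 by 3193 bases and had 37.3 and 38.7 CPM in high and 23.7 and 29.9 CPM in low, the opposite direction to CCND3. TSPAN31, a tetraspanin gene 218 bases from CDK4, had 77.7 and 103 CPM in high and 51.3 and 68.3 CPM in low, also opposite to its neighbour. Other near genes went the same way as their neighbours. BYSL, 582 bases from CCND3, had 42.2 and 31.0 CPM in high and 66.2 and 50.3 CPM in low. The non-coding gene that overlaps CCND2 had a log2 fold change of -1.37. Without a stated strand setting, reads in the overlap of CCND3 and TAF8 cannot be assigned to one or the other here. TIGAR, which lowers glycolytic flux and lies 24911 bases from CCND2, had 18.4 and 6.56 CPM in high against 33.3 and 25.3 CPM in low, and so was lowest in high replicate 2 as CCND2 was. In each of these genes edgeR's adjusted p was 0.246 or more.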
